A study of Mus musculus with 2 samples.

Results

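The proximal T cell receptor (TCR) signaling genes described here are the 4 signaling chains of the CD3 complex (*Cd3d*, *Cd3e*, *Cd3g* and *Cd247*), the kinases *Lck* and *Zap70*, the adaptor *Lat* and the regulator *Cd5*. They were chosen by name for their place at the first steps below the receptor, with earlier results of these data known, and all 8 were found among the 31053 mouse genes of the data. The TCR itself binds antigen but has no signaling domain of its own. When it is engaged, the kinase LCK phosphorylates tyrosines in the tails of the CD3 chains, ZAP70 docks there, and ZAP70 in turn phosphorylates LAT, a membrane adaptor on which the enzymes of the downstream branches assemble. CD5 is a surface protein that dampens this signal, and its level is widely used as a readout of how strongly a T cell sees self ligands.

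T cells were sorted on TCR-β on day 9 from tumors that mice of the C57BL/6 background bore after intradermal inoculation of 100000 melanoma cells. The tumors grew from B16, a mouse melanoma line, or from B16–IL-33, the same line engineered to secrete interleukin-33. Cells of both tumors were labelled with 4 hashtag antibodies, pooled and sequenced as a 5′ gene expression library, a hashtag library and a TCR library. The pool is 1 sample without replicates, and no age of the mice is stated in the sources used here.

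The gene expression library held 14035 cell barcodes with 43420305 unique molecular identifiers (UMIs, each standing for 1 captured RNA molecule) on mouse genes. Of these barcodes, 11756 were also in the hashtag library and 6665 in the TCR library. Limits of 200 to 2500 detected genes and under 5% mitochondrial UMIs kept 9082 cells, with a median of 2466.5 UMIs (254 to 14063). Levels are given as CPM, the UMIs of a gene per 1000000 mouse UMIs summed over the cells of a group. Ranges in parentheses are 95% intervals, exact Poisson for CPM and Clopper-Pearson for shares, with ratios of CPM read from an exact binomial on the summed UMIs. They cover counting error only, and no difference has a replicate check. A gene was counted as past the fold when its ratio was at least 1.3 or at most 1/1.3 and both groups together held at least 200 of its UMIs.

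Cells were assigned to lineages by UMIs of genes outside the set. T_reg_ cells, by *Foxp3* without *Cd8a* or *Cd8b1*, numbered 2609. T_conv_ cells, by *Cd4* without those 3 genes, numbered 1769, and CD8+ T cells, with more *Cd8a* and *Cd8b1* than *Cd4* and *Foxp3* UMIs, numbered 1259. Another 81 cells had *Zbtb16*, which encodes the transcription factor PLZF of natural killer T (NKT) cells, and no *Foxp3*, *Cd8a* or *Cd8b1*. Of these, 21 were also T_conv_ cells by the rule. They were compared with the 1748 T_conv_ cells that lacked *Zbtb16*. The remaining 3385 cells carried none of these combinations.

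The markers went with the lineage names in most respects. Without *Foxp3*, which set the group, the other 4 T_reg_ markers were all detected in T_reg_ cells, at a summed 3624 CPM with *Ctla4* the most abundant at 1187 CPM, against 1333 CPM in T_conv_ cells and 701 CPM in CD8+ T cells. By the rule, a T_reg_ cell with a *Cd4* but no captured *Foxp3* UMI counts as T_conv_, and how many did was not tested. *Cd40lg*, a T_conv_ marker outside the rule, was at 147 CPM in T_conv_, 36.2 CPM in T_reg_ and 16.2 CPM in CD8+ T cells. The name NKT was met in part. Among the 27 *Zbtb16*+ cells with a productive alpha chain, 16 (59.3%, 38.8 to 77.6%) carried the invariant TRAV11–TRAJ18 chain, against 17 of 802 T_conv_ cells (2.12%, 1.24 to 3.37%) and 0 of 626 CD8+ T cells. For the last, 3 cells in 626 (0.479%) was taken as an approximate upper bound, which is not a Clopper-Pearson limit. Without *Zbtb16*, the other 6 NKT markers had UMIs in them, at a summed 1168 CPM, but this list was at 930 CPM in T_conv_ cells and higher, at 1451 CPM, in T_reg_ cells. Its sum rests mostly on *Icos*, *Il2rb* and *Cxcr6*, whereas *Il4* was at 104 CPM against 10.6 CPM in T_conv_ and 2.54 CPM in T_reg_ cells, and *Klrb1c* at 61.1 CPM against 7.37 and 0.605 CPM. γδ T cell genes stood at 46.7 CPM, against 6.97 CPM in T_conv_ cells. These cells are therefore called *Zbtb16*+ cells below.

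Cells that should lack the genes gave the background. The 448 cells with at least 3 UMIs of 9 myeloid markers (median 4043 UMIs per cell) had the 4 CD3 chains at a summed 745 CPM, but many of them also met a lineage rule or had a TCR. In the 278 that met no lineage rule and had no TCR (median 3618 UMIs), a group chosen after the data were seen, the sum was 212 CPM (185 to 241). It was 3313 CPM in T_reg_ cells, 3146 CPM in T_conv_ cells and 3210 CPM in CD8+ T cells. As a share of their level in the 3 lineages pooled, the 8 genes ranged from 5.19% (2.24 to 10.3%) for *Zap70* to 7.62% (4.88 to 11.4%) for *Cd5*. *Cd5* in CD8+ T cells, at 126 CPM against 22.5 CPM in these cells, was closer to the background than its pooled share shows.

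**Figure D1:**
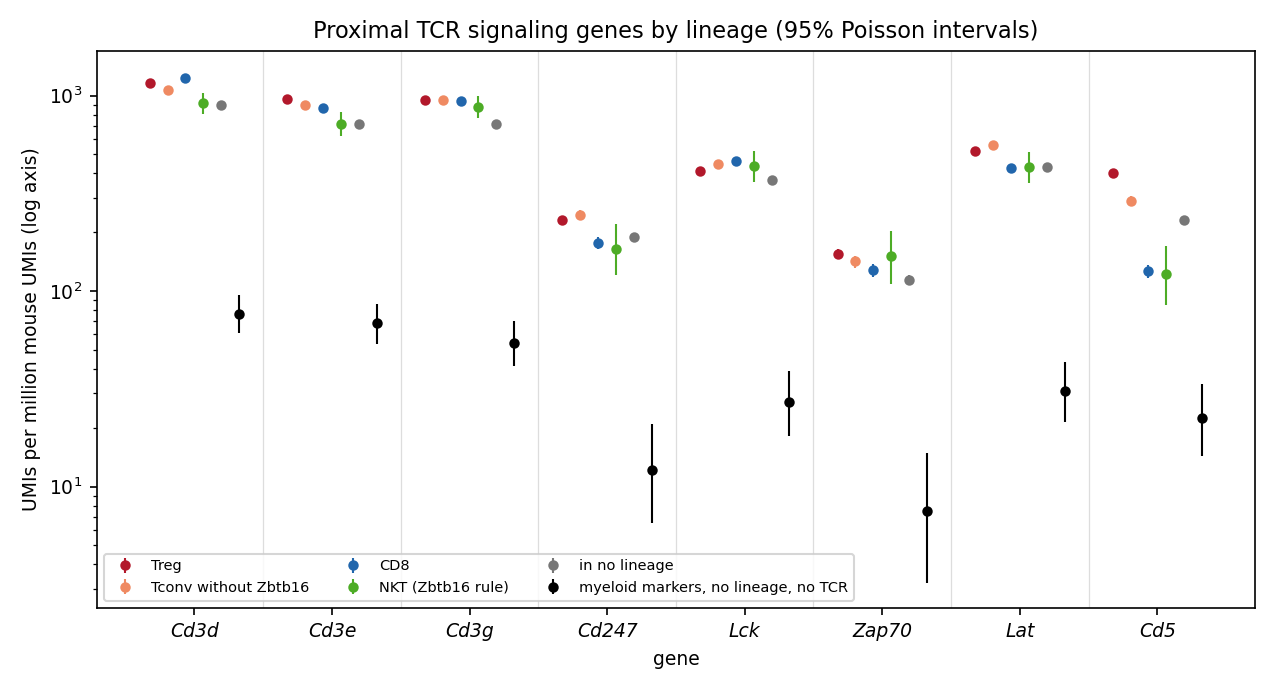
Levels of the 8 genes in CPM (log axis) by group of cells, with 95% Poisson intervals. *Cd5* spreads most between the lineages, from 402 CPM in T_reg_ cells to 122 CPM in *Zbtb16*+ cells, and the myeloid-marker cells lie below the lineages for all 8 genes.

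Between lineages, *Cd5* was past the fold in all 4 comparisons, *Cd247* in 3 and *Lat* in 1. In T_reg_ against T_conv_ cells, 1 of the 8 genes was past the fold (*Cd5*, higher), beside 27.7% of the 6046 genes with at least 200 UMIs. In CD8+ T cells against T_conv_ cells, 3 of 8 were (*Cd247*, *Lat* and *Cd5*, all lower), beside 25.3% of 4987 genes. In CD8+ T cells against T_reg_ cells, 2 of 8 were (*Cd247* and *Cd5*, both lower), beside 44.8% of 5981 genes. In *Zbtb16*+ cells against T_conv_ cells, 2 of 8 were (*Cd247* and *Cd5*, both lower), beside 38.3% of 3190 genes. These counts lay near or below the share of all genes, so they are no result about the set as a whole, and that of CD8+ against T_conv_ cells fell to 1 with TMM.

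The ratios depend on what the totals hold. The median gene had a ratio of 1.08 in T_reg_ against T_conv_ cells, 0.926 in CD8+ T cells against T_conv_ cells, 0.852 in CD8+ T cells against T_reg_ cells and 0.94 in *Zbtb16*+ against T_conv_ cells. Scaling by the trimmed mean of M values (TMM) of edgeR put the general shift of these comparisons at 0.11, −0.11, −0.23 and −0.10 on the log2 scale. Ratios with this shift divided out are given as TMM-scaled.

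CD3δ, CD3ε and CD3γ form the dimers that carry the TCR to the surface, and their genes had similar levels in the 3 main lineages. For *Cd3d*, T_reg_ cells had 1166 CPM (1143 to 1189), T_conv_ cells 1067 CPM (1038 to 1096) and CD8+ T cells 1229 CPM (1198 to 1259). Its CD8+ to T_conv_ ratio of 1.15 (1.11 to 1.19) was 1.24 when TMM-scaled, so it stayed inside the fold either way. *Cd3e* went from 960 CPM in T_reg_ cells through 893 CPM in T_conv_ cells to 869 CPM in CD8+ T cells. *Cd3g*, at 955, 942 and 936 CPM in the same order, had the closest levels of the set in CPM, though not when TMM-scaled, and no neighbours in its order were separated by their interval. For *Cd3e* and *Cd3g*, the direction of each comparison among these 3 lineages flipped with the scaling, as did that of *Cd3d* in T_reg_ against T_conv_ cells.

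*Zbtb16*+ cells had the lowest point value of each of these 3 genes. *Cd3d* was at 916 CPM (807 to 1036) and *Cd3e* at 715 CPM (619 to 822), which put the ratios to T_conv_ cells at 0.856 (0.752 to 0.971) and 0.802 (0.692 to 0.925), both inside the fold. *Cd3g* was at 877 CPM (770 to 994), a ratio of 0.926 (0.811 to 1.05). In the 62 kept cells with an invariant alpha chain, which were defined by the receptor and not by *Zbtb16*, *Cd3d* stood higher at 1184 CPM (1040 to 1342), *Cd3e* at 889 CPM (765 to 1027) and *Cd3g* at 1083 CPM (945 to 1234). Some cells belong to both groups, and their difference was not tested. The 9 myeloid markers were at a summed 273 CPM in *Zbtb16*+ cells (5 detected, *Adgre1*, *C1qb*, *C1qc* and *Ms4a7* at 0), 217 CPM in T_conv_ cells without *Zbtb16* (all detected) and 19.3 CPM in cells with an invariant chain (*Lyz2* and *C1qa* detected, the other 7 at 0), with *Lyz2* the most abundant in each, and their part in the result was not tested. γδ T cell genes were at 48.3 CPM in these cells too, all from *Tcrg-C1*, with *Trdc* at 0.

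*Cd247* encodes CD3ζ, the chain with 3 of the tyrosine motifs that LCK acts on in each copy. T_conv_ cells had 244 CPM (231 to 258), T_reg_ cells 231 CPM (221 to 242), CD8+ T cells 177 CPM (165 to 189) and *Zbtb16*+ cells 165 CPM (121 to 220). The ratio of CD8+ to T_conv_ cells was 0.724 (0.663 to 0.79), or 0.78 TMM-scaled, and that of CD8+ to T_reg_ cells 0.764 (0.705 to 0.828), or 0.895 TMM-scaled. Both were below 1 under every scaling tried, but with TMM neither was past the fold. In *Zbtb16*+ against T_conv_ cells the ratio was 0.674 (0.491 to 0.905), or 0.723 TMM-scaled, and in cells with an invariant chain *Cd247* was at 111 CPM (70.5 to 167).

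The composition of the CD3 transcripts shows a shift that needs no scaling, since it uses only UMIs of the 4 chains. Each UMI of this 5′ library stands for 1 molecule, so no correction for gene length was made. *Cd247* made up 7.76% (7.35 to 8.19%) of CD3 chain UMIs in T_conv_ cells, 6.98% (6.68 to 7.29%) in T_reg_ cells and 5.51% (5.16 to 5.87%) in CD8+ T cells. *Cd3d* was at 33.9% (33.2 to 34.7%), 35.2% (34.6 to 35.8%) and 38.3% (37.5 to 39%) in the same order, so the share of *Cd3d* was highest where that of *Cd247* was lowest. *Cd3g* stayed between 28.8% and 29.9% in the 3 lineages, and *Cd3e* between 27.1% and 29%. In *Zbtb16*+ cells the *Cd247* share was 6.18% (4.56 to 8.16%), an interval that holds the values of all 3 lineages.

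*Lck*, the Src-family kinase that binds the CD4 and CD8 coreceptors, was highest in CD8+ T cells at 462 CPM (444 to 481), followed by T_conv_ cells at 446 CPM (428 to 465), *Zbtb16*+ cells at 435 CPM (361 to 519) and T_reg_ cells at 412 CPM (398 to 426). No neighbours in this order were separated by their interval. Its CD8+ to T_reg_ ratio was 1.12 (1.06 to 1.18), inside the fold, but 1.31 when TMM-scaled, past it. *Zap70*, the kinase recruited to phosphorylated CD3 tails, was highest in T_reg_ cells at 155 CPM (147 to 164), followed by *Zbtb16*+ cells at 151 CPM (109 to 204), T_conv_ cells at 142 CPM (132 to 153) and CD8+ T cells at 128 CPM (118 to 138). With T_conv_ cells that lacked *Zbtb16*, neighbours were not separated here either, but the CD8+ ratio to all T_conv_ cells was 0.896 (0.805 to 0.998). T_reg_ and CD8+ T cells at the ends were separated, with a ratio of 0.821 (0.746 to 0.904) that became 0.962 when TMM-scaled. The direction of *Zap70* in T_reg_ against T_conv_ cells and that of *Lck* in *Zbtb16*+ against T_conv_ cells flipped with the scaling. With no upper limit on genes, *Lck* in CD8+ against T_conv_ cells turned to 0.934. That setting draws on 766 barcodes over the limit, with a median of 13576 UMIs and the CD3 chains at a summed 1478 CPM. They also held myeloid and melanocyte RNA, with values in the closing section, and its part in such changes was not tested.

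*Lat*, the adaptor, was lowest in the same lineages as *Cd247*. T_conv_ cells had 559 CPM (539 to 580), T_reg_ cells 518 CPM (503 to 534), *Zbtb16*+ cells 431 CPM (357 to 516) and CD8+ T cells 425 CPM (407 to 444). The ratio of CD8+ to T_conv_ cells, 0.76 (0.718 to 0.804), was past the fold, but 0.819 when TMM-scaled, inside it. That of *Zbtb16*+ to T_conv_ cells, 0.77 (0.636 to 0.924), lay at the edge of the fold without passing it, and turned to 1.07 with at least 2 UMIs for a lineage.

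*Cd5* set the lineages apart most. T_reg_ cells had 402 CPM (389 to 416), T_conv_ cells 288 CPM (273 to 303), CD8+ T cells 126 CPM (116 to 136) and *Zbtb16*+ cells 122 CPM (84.6 to 171). T_reg_ and T_conv_ cells differed from each other and from CD8+ T cells beyond counting error, while CD8+ T cells and *Zbtb16*+ cells did not. The ratio of CD8+ to T_reg_ cells was 0.313 (0.287 to 0.341), or 0.367 TMM-scaled, and that of CD8+ to T_conv_ cells 0.438 (0.399 to 0.482), or 0.472. *Zbtb16*+ to T_conv_ cells gave 0.422 (0.291 to 0.593), or 0.453. The T_reg_ to T_conv_ ratio of 1.4 (1.31 to 1.49) was 1.26 with totals that left out ribosomal protein, mitochondrial and TCR segment genes, so it stayed above 1 but not always past the fold. Among the 3 main lineages, the low *Cd5* of CD8+ T cells was the only difference in the set that passed the fold under every scaling.

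Shares of cells with a UMI gave a like order for *Cd5*. After each cell was thinned to 1500 UMIs, *Cd5* was found in 41.1% (39 to 43.2%) of T_reg_ cells, 29.3% (27 to 31.7%) of T_conv_ cells, 16.6% (14.5 to 18.9%) of CD8+ T cells and 17.7% (10 to 27.9%) of *Zbtb16*+ cells. Without thinning, the shares were 60.4%, 46.5%, 33.4% and 30.9%. Median depths were 2780, 2498, 3464 and 2939 UMIs per cell, and 454, 322, 108 and 2 cells were too shallow to be thinned. In myeloid-marker cells the thinned share was 9.66% (6.78 to 13.2%), against 17.6% unthinned, and in those in no lineage and without a TCR 2.5% (0.817 to 5.74%), against 6.83% unthinned. *Cd5* in CD8+ T cells was low but above either background.

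For the other genes, shares differed less between lineages. *Cd247* was found in 30.1% (27.7 to 32.5%) of thinned T_conv_ cells, 29.3% (27.4 to 31.3%) of T_reg_ cells and 21.8% (19.5 to 24.3%) of CD8+ T cells, against 7.1% (4.65 to 10.3%) of myeloid-marker cells. Unthinned, the shares of the 3 lineages were alike at 44.2%, 46.3% and 45.7%, with CD8+ T cells the deepest of them. *Lat* was found in 54.9%, 53.1% and 47.3% of the thinned cells of the same lineages (69.5%, 70.1% and 72.6% unthinned), and in 31.6% (21.6 to 43.1%) of *Zbtb16*+ cells. At least 1 UMI of a CD3 chain was present in 97.5% (96.7 to 98.1%) of thinned T_reg_ cells, 97.1% (96.1 to 97.9%) of T_conv_ cells and 96.8% (95.6 to 97.7%) of CD8+ T cells (97.8%, 97.9% and 98.3% unthinned). The share was 43.2% (37.9 to 48.5%) in myeloid-marker cells and 17% (12.1 to 22.9%) in those in no lineage and without a TCR. Nearly every cell given a lineage by other genes therefore carried CD3 RNA.

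The wider pathway was read from 7 lists with 57 genes, of which 53 met the minimum of UMIs in the comparisons of the 3 main lineages. In T_reg_ against T_conv_ cells, 11 were past the fold upward and 14 downward, with a median ratio of 0.975, beside 27.7% of all genes. Over all genes, 1203 were past it upward and 471 downward, with a median of 1.08. Among 9 tested genes of ubiquitin ligases and feedback, 4 were past the fold upward (*Ubash3b*, *Sla*, *Sla2* and *Dok1*) and 0 downward. *Sla* and *Sla2* are named here because their values were seen. *Ubash3b*, which encodes the phosphatase STS-1 that acts on ZAP70, stood at 90.2 CPM against 42.6 CPM, a ratio of 2.12 (1.81 to 2.47). *Dok1*, an inhibitory docking protein, was at 1.63 (1.32 to 2.02) and *Nr4a3*, an early response gene of TCR signaling, at 1.57 (1.28 to 1.94). Of the 8 response genes tested, however, 3 were past the fold upward and 3 downward, with a median of 0.953. Lowest were *Themis*, an adaptor that sets signaling thresholds in thymocytes, at 0.336 (0.276 to 0.408), *Lax1*, a transmembrane adaptor, at 0.532 (0.415 to 0.68) and *Prkcq*, the kinase PKCθ of the immune synapse, at 0.627 (0.551 to 0.713).

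In CD8+ T cells against T_conv_ cells, 5 of the 53 genes were past the fold upward and 15 downward, with a median of 0.883, beside 25.3% of all genes. Over all genes, 297 were past it upward and 967 downward, with a median of 0.926, so the downward lean was shared by genes outside the lists. Of 15 adaptors, 7 were lower and 2 higher. *Trat1*, a transmembrane adaptor bound to the TCR complex, was lowest at 20.6 CPM against 65.7 CPM, a ratio of 0.313 (0.249 to 0.392). It was followed by *Malt1*, a protease and scaffold of NF-κB activation, at 0.485 (0.421 to 0.557) and *Sit1*, another transmembrane adaptor, at 0.574 (0.487 to 0.676). *Nr4a2*, an early response gene, was highest at 2.67 (2.32 to 3.07), then *Lax1* at 1.61 (1.31 to 2) and *Ptpn6*, the inhibitory phosphatase SHP-1, at 1.6 (1.38 to 1.86). Of the 8 response genes tested, 2 were past the fold upward and 2 downward. *Lax1* thus went against *Trat1* and *Sit1* in direction, and the adaptors were not tested as a group.

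In CD8+ T cells against T_reg_ cells, 12 genes were past the fold upward and 18 downward, with a median of 0.842, beside 44.8% of all genes. Over all genes, 557 were past it upward and 2124 downward, with a median of 0.852, so the downward lean was again shared by genes outside the lists. *Malt1* at 0.358 (0.315 to 0.406), *Trat1* at 0.413 (0.33 to 0.513) and *Cd6*, the closest relative of *Cd5*, at 0.455 (0.413 to 0.5) were lowest. *Cd6* stood at 108 CPM against 237 CPM, so both receptors of this pair were lower in CD8+ T cells. The highest were *Themis* at 3.72 (3.09 to 4.5), *Nr4a2* at 3.48 (3.06 to 3.97) and *Lax1* at 3.04 (2.44 to 3.8). *Nr4a2* was the only 1 of 8 response genes past the fold upward, and 2 were past it downward.

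In *Zbtb16*+ cells, 48 of the 57 genes met the minimum, with 9 past the fold upward, 20 downward and a median of 0.828, beside 38.3% of all genes. Over all genes, 368 were past it upward and 853 downward, with a median of 0.94. *Txk*, a Tec-family kinase, was highest at 180 CPM against 67.8 CPM, a ratio of 2.65 (1.93 to 3.57). *Pag1*, an adaptor that recruits the inhibitory kinase CSK, was next at 1.73 (1.18 to 2.47) and *Ptpn2*, a phosphatase, at 1.67 (1.04 to 2.57). *Irf4* at 0.246 (0.0504 to 0.73), *Ubash3a* at 0.287 (0.0777 to 0.745) and *Themis* at 0.424 (0.169 to 0.885) were lowest, from 3, 4 and 7 UMIs in this group of 278310 UMIs. They met the minimum by their UMIs in T_conv_ cells, which favors low ratios.

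States within a lineage were set by UMIs of other genes, and each was compared with the cells of the lineage that did not meet its rule. *Pdcd1*+ cells had a UMI of the gene for the inhibitory receptor PD-1. Cycling cells had at least 2 UMIs of 8 cell cycle genes, stimulated cells at least 2 UMIs of 5 *Nr4a* and *Egr* genes that TCR signals induce, and interferon cells at least 3 UMIs of 6 interferon-induced genes. A deeper cell is more likely to have a UMI of any gene, so depth goes with these rules, and median depths are given.

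In T_reg_ cells, 0 of the 8 genes were past the fold in *Pdcd1*+, cycling, stimulated or interferon cells, beside 8.20%, 23.3%, 7.62% and 14.1% of the 4647 genes tested. In T_conv_ cells the counts were 1, 0, 0 and 1 of 8 in the same order, beside 14.2%, 32.2%, 10.7% and 17.9% of 3092 genes. In CD8+ T cells they were 1, 2, 1 and 0 of 8, beside 18.2%, 34.0%, 10.1% and 16.3% of 2825 genes. All of these counts lay near or below the share of all genes, so they are no result about the set as a whole. *Zap70* accounted for 3 of the 6 instances, and *Lck*, *Cd247* and *Cd5* for 1 each. The counts depended on the limit of 2500 genes. Without it they were 0, 4, 0 and 0 in T_reg_ cells, 1, 7, 2 and 4 in T_conv_ cells and 0, 4, 0 and 0 in CD8+ T cells, a setting for which the share of all genes was not computed. Barcodes over the limit also held myeloid and melanocyte RNA. Its part in these counts, and in the ratios below without the limit, was not tested.

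**Figure D2:**
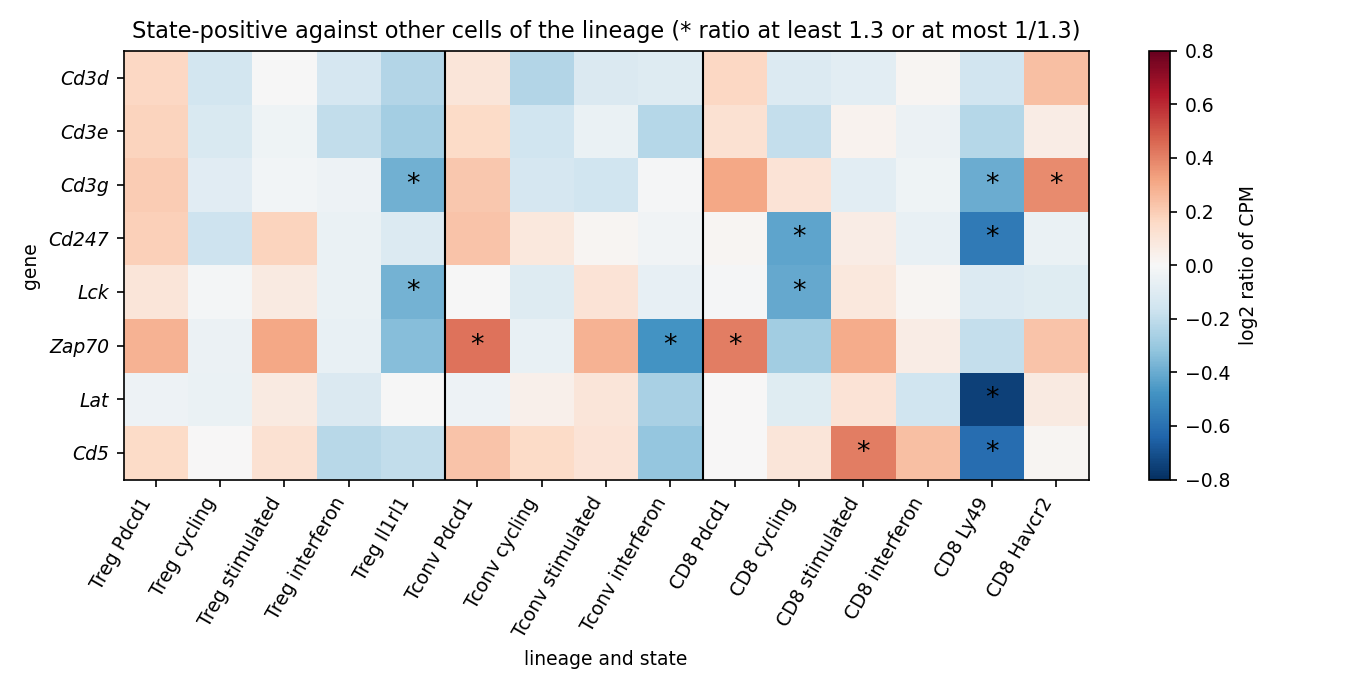
Log2 ratio of CPM of each gene (rows) between cells that met a state's rule and the other cells of the same lineage (columns). *Zap70* is higher in *Pdcd1*+ and stimulated cells of all 3 lineages, with ratios from 1.21 to 1.35, and the Ly49 column of CD8+ T cells holds the lowest value, 0.595 for *Lat*.

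*Zap70* was higher in *Pdcd1*+ cells. Between *Pdcd1*+ and other cells its level was 180 CPM against 150 CPM in T_reg_ cells, 180 CPM against 133 CPM in T_conv_ cells and 151 CPM against 114 CPM in CD8+ T cells. These are ratios of 1.21 (1.05 to 1.38), 1.35 (1.13 to 1.6) and 1.33 (1.13 to 1.55), the last 2 past the fold. After thinning to 1500 UMIs they were 1.15, 1.34 and 1.36, while those of *Cd5* rose to 1.26, 1.41 and 1.22. The 3 *Zap70* ratios point the same way, and whether they differ between lineages was not tested. The summed CD3 chains were also higher in *Pdcd1*+ cells, by 1.13 (1.1 to 1.17), 1.12 (1.08 to 1.16) and 1.14 (1.1 to 1.17) times, all inside the fold. With no upper limit on genes, *Cd3d* in CD8+ T cells turned to 0.975 and *Cd247* to 0.969. *Lck* and *Lat* hardly differed, with ratios between 0.971 and 1.07 in the 3 lineages. Median depths of *Pdcd1*+ and other cells were 3568 and 2666 UMIs in T_reg_ cells, 2866.5 and 2454 in T_conv_ cells and 5059.5 and 3031 in CD8+ T cells. Summed myeloid markers, led by *Lyz2*, were at 87.3 and 249 CPM, 109 and 239 CPM, and 153 and 243 CPM in the same order, all 9 detected but for *Adgre1* at 0 in *Pdcd1*+ CD8+ T cells. The part of depth and of these RNAs in the result was not tested.

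Stimulated cells shared the higher *Zap70* but not the higher CD3. *Zap70* ratios were 1.24 (1.1 to 1.39) in T_reg_ cells, 1.21 (1.02 to 1.43) in T_conv_ cells and 1.23 (1.04 to 1.46) in CD8+ T cells, inside the fold, whereas the summed CD3 chains were at 0.996, 0.933 and 0.969 of the other cells. *Cd5* in stimulated CD8+ T cells was past the fold, at 154 CPM against 116 CPM, a ratio of 1.33 (1.12 to 1.57), but inside it in 6 of 8 alternatives, at 1.18 with no upper limit on genes and 1.24 for the mean over cells. Its ratios in T_reg_ and T_conv_ cells were 1.09 (1.01 to 1.18) and 1.08 (0.955 to 1.22), and a difference between lineages was not tested. With no upper limit on genes, the *Cd5* ratio in T_conv_ cells turned to 0.874. Stimulated and other cells had median depths of 4120 and 3248 UMIs in CD8+ T cells, 3464 and 2528 in T_reg_ cells and 2928 and 2395 in T_conv_ cells.

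Cycling CD8+ T cells had less *Cd247* and *Lck*. *Cd247* was at 140 CPM against 188 CPM, a ratio of 0.747 (0.628 to 0.884), and *Lck* at 369 CPM against 491 CPM, a ratio of 0.752 (0.677 to 0.834), while *Cd3g* was at 1.08 (1.01 to 1.15). The same ratios in T_reg_ cells were 0.893 (0.786 to 1.01) for *Cd247* and 0.991 (0.904 to 1.09) for *Lck*, and in T_conv_ cells 1.06 (0.881 to 1.27) and 0.929 (0.805 to 1.07). Whether the lineages differ in this was not tested. With no upper limit on genes, *Cd247* was at 0.711 in CD8+ T cells, 0.664 in T_reg_ cells and 0.662 in T_conv_ cells, and *Lck* at 0.682, 0.848 and 0.669, so the contrast between lineages depended on that limit, and *Cd3g* in CD8+ T cells turned to 0.919. Cycling CD8+ T cells had a median of 6180 UMIs against 3114, with 4888 against 2641 in T_reg_ cells and 4328 against 2451.5 in T_conv_ cells. Interferon cells among T_conv_ cells had less *Zap70*, at 107 CPM against 149 CPM, a ratio of 0.717 (0.564 to 0.902), with median depths of 3000.5 and 2418 UMIs. Their 9 myeloid markers, all detected, were at a summed 776 CPM against 109 CPM, with *Lyz2* the most abundant, and their part in the result was not tested.

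*Il1rl1* encodes the receptor of IL-33, the cytokine that the engineered tumors secrete. T_reg_ cells with an *Il1rl1* UMI numbered 504 and had a median depth of 2850 UMIs, close to the 2772 UMIs of the other 2105. In them, 2 of the 8 genes were past the fold, both lower, beside 12.7% of 4647 genes, but 0 with no upper limit on genes, where *Cd3g* was at 0.785 and *Lck* at 0.806. *Cd3g* was at 767 CPM against 1002 CPM, a ratio of 0.766 (0.721 to 0.814), and *Lck* at 332 CPM against 432 CPM, a ratio of 0.769 (0.7 to 0.843). *Zap70*, at 128 CPM against 162 CPM, a ratio of 0.791 (0.679 to 0.918), lay inside the fold, as did *Cd3e* at 0.83 (0.782 to 0.88), *Cd3d* at 0.851 (0.807 to 0.897) and *Cd5* at 0.871 (0.795 to 0.952). *Zap70* moved to 0.974 after thinning to 1500 UMIs, and to 0.759, past the fold, as the mean over cells. *Cd247* at 0.926 (0.823 to 1.04) and *Lat*, at 517 CPM against 518 CPM, a ratio of 0.998 (0.924 to 1.08), were not separated.

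The median of all genes tested was 1 here, and no direction flipped with the scaling. Whether a general shift of the cells has a part in the lower values was not tested. The summed CD3 chains were at 2832 CPM against 3432 CPM, a ratio of 0.825 (0.799 to 0.852). All 5 T_reg_ markers were detected, at a summed 4887 CPM in *Il1rl1*+ cells and 4206 CPM in the others, with *Ctla4* the most abundant. All 9 myeloid markers were detected too, at 98.3 and 248 CPM, with *Lyz2* the most abundant, and their part in the result was not tested.

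CD8+ T cells with a UMI of any of 9 Ly49 receptor genes, most of which encode inhibitory receptors for MHC class I, numbered 132, with a median of 4173.5 UMIs against 3327 in the other 1127. Of the 8 genes, 4 were past the fold, all lower, beside 31.9% of 2825 genes, and 3 with no upper limit on genes, where *Cd5* was inside it at 0.785. *Lat* was at 265 CPM against 446 CPM, a ratio of 0.595 (0.502 to 0.701), *Cd5* at 86.1 CPM against 131 CPM, a ratio of 0.656 (0.481 to 0.876), and *Cd247* at 124 CPM against 184 CPM, a ratio of 0.675 (0.523 to 0.86). *Cd3g* had a ratio of 0.76 (0.686 to 0.84). The kinases were closer to the other cells, at 0.927 (0.81 to 1.06) for *Lck*, which flipped to 1.03 with TMM, and 0.878 (0.67 to 1.13) for *Zap70*.

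Most of this pattern exceeded the general shift of these cells, which TMM put at −0.15 on the log2 scale. TMM-scaled ratios were 0.66 for *Lat*, 0.727 for *Cd5*, 0.749 for *Cd247* and 0.843 for *Cd3g*, the last inside the fold. Of the 4 NK cell markers, 3 had UMIs in Ly49+ cells, at a summed 232 CPM with *Klre1* the most abundant and *Ncr1* at 0, against 105 CPM in the others, where all 4 were detected and *Eomes* was the most abundant. Both γδ T cell genes were detected, at 32.7 CPM against 2.46 CPM with *Tcrg-C1* the most abundant, and *Cd8a* and *Cd8b1* stood at 765 CPM against 1425 CPM. Their part in the result was not tested.

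*Havcr2*, which encodes the inhibitory receptor TIM-3, marked 183 CD8+ T cells with a median of 5672 UMIs against 3157.5. In them 1 of the 8 genes was past the fold, beside 27.8% of 2825 genes, and 0 with no upper limit on genes. *Cd3g* was at 1147 CPM against 881 CPM, a ratio of 1.3 (1.22 to 1.39), or 1.28 TMM-scaled, and *Cd3d* at 1394 CPM against 1185 CPM, a ratio of 1.18 (1.11 to 1.25). With no upper limit on genes they were at 1.18 and 0.948, so the direction of *Cd3d* turned. *Cd3e* and *Cd247* hardly differed, at 1.04 (0.963 to 1.11) and 0.962 (0.813 to 1.13).

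Clone size was read from the TCR library. T_reg_ cells with a clonotype numbered 1705, with 98 in 46 expanded clones (at least 2 cells of the lineage). T_conv_ cells had 1180 with 63 in 27 expanded clones, and CD8+ T cells 921 with 200 (21.7%) in 73 expanded clones, the largest of 13 cells. The 60 *Zbtb16*+ cells with a clonotype held 0 expanded clones. Between expanded and single clones, 0 of the 8 genes were past the fold in T_reg_ cells, T_conv_ cells or CD8+ T cells, beside 25.1% of 3825, 32.3% of 2369 and 18.1% of 2352 genes. With clones of at least 3 cells the counts were 4, 2 and 0, from 16, 21 and 98 cells. The share of all genes for clones of this size is not given here, so these counts cannot be set against it.

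Expanded CD8+ clones had slightly more CD3 RNA. The summed chains were at 3589 CPM against 3262 CPM, a ratio of 1.1 (1.06 to 1.14), and rose from 3262 CPM (3200 to 3325) in single clones through 3394 CPM (3231 to 3563) in clones of 2 cells to 3783 CPM (3612 to 3961) in larger ones. *Cd3d* was at 1.12 (1.06 to 1.2), *Cd3g* at 1.12 (1.04 to 1.2) and *Cd3e* at 1.09 (1.01 to 1.17), while *Cd247* went against them at 0.891 (0.744 to 1.06). The median gene had a ratio of 1.04, and median depths were 4402.5 and 3980 UMIs. Of the 9 myeloid markers, 8 were detected in expanded clones, at 244 CPM with *Adgre1* at 0, and 9 in single clones, at 87.4 CPM, led by *Lyz2*, and their part in the result was not tested. *Cd5* was at 128 CPM (116 to 141) in single clones, 130 CPM (99.6 to 167) in clones of 2 cells and 104 CPM (77.1 to 137) in larger ones, which overlap.

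In T_reg_ cells, *Zap70* was at 203 CPM against 166 CPM, a ratio of 1.23 (0.947 to 1.57), and *Cd5* at 430 CPM against 409 CPM, a ratio of 1.05 (0.883 to 1.24). In T_conv_ cells, *Lat* was at 666 CPM against 563 CPM, a ratio of 1.18 (0.994 to 1.4), and *Cd247* at 207 CPM against 259 CPM, a ratio of 0.801 (0.582 to 1.08). Each of these intervals held 1. In T_reg_ cells, *Cd3e* at 1.13 (1.01 to 1.25) and the summed CD3 chains at 1.07 (1.01 to 1.13) were slightly higher in expanded clones, inside the fold. With no upper limit on genes the direction in T_reg_ cells turned for *Cd3d* at 0.932, *Cd3e* at 0.964 and *Cd3g* at 0.933. It also turned for *Zap70* at 0.965 and *Cd5* at 0.943.

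The comparison of tumors rests on few hashtag reads. The hashtag library held 1730 tag UMIs beside 22837655 UMIs that matched no tag, and 939 kept cells could be given a tumor, 849 of them by a single tag UMI. B16 and B16–IL-33 tags were found on 245 and 55 T_reg_ cells, 164 and 17 T_conv_ cells and 103 and 19 CD8+ T cells. How tags and animals correspond is not stated in the sources used here, and no spread between animals was computed. A wrong tag on some of these cells cannot be told from a right one.

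In T_reg_ cells from B16–IL-33 tumors, 1 of the 8 genes was past the fold, beside 24.8% of the 771 genes with enough UMIs. *Cd3g* was at 806 CPM (681 to 948) against 1095 CPM (1029 to 1164), a ratio of 0.736 (0.615 to 0.877). *Cd3d* had a ratio of 0.826 (0.707 to 0.961), *Cd3e* of 0.785 (0.658 to 0.932) and the summed CD3 chains of 0.79 (0.72 to 0.866). *Lck*, at 387 CPM against 485 CPM, had a ratio of 0.797 (0.611 to 1.03). *Cd5*, at 414 CPM against 389 CPM, had a ratio of 1.06 (0.819 to 1.37) that flipped to 0.893 as the mean over cells. *Cd247*, at 0.862 (0.591 to 1.22), was not separated. *Cd3g* turned to 1.02 with the tags numbered 1 and was at 0.862 as the mean over cells. With the tags numbered 1, *Cd3e* also turned to 1.02, and *Cd247* was at 0.407. With at least 2 tag UMIs, *Cd3d* turned to 1.11, *Lck* to 1.2 and *Cd247* to 2.27, and *Cd5* was at 1.99. None of these genes kept its direction throughout.

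The tags of 1 tumor type did not fall together, however. The summed CD3 chains in T_reg_ cells were at 3270 CPM (3068 to 3482) and 3996 CPM (3839 to 4157) for the B16 tags numbered 1 and 2, and at 3246 CPM (2767 to 3784) and 2827 CPM (2546 to 3130) for the B16–IL-33 tags numbered 1 and 2. The B16 tags differed from each other beyond counting error, and the tags numbered 1 alone showed nearly equal levels. The 9 myeloid markers were all detected in B16 T_reg_ cells, at a summed 727 CPM, with 1650 CPM under the tag numbered 1 and 132 CPM under the tag numbered 2. In B16–IL-33 T_reg_ cells 6 of 9 were detected, at 392 CPM, with *Adgre1*, *C1qa* and *Ms4a7* at 0 and *Lyz2* the most abundant in both tumors. Under their tags numbered 1 and 2 these markers were at 19.9 and 535 CPM, so they were lower than in B16 for the tags numbered 1 and higher for those numbered 2. Median depths were 3401 UMIs for B16 and 2467 UMIs for B16–IL-33, and their part in the result was not tested.

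In T_conv_ cells, 5 of the 8 genes had at least 200 UMIs and 3 of these were past the fold, beside 26.6% of 308 genes. *Cd3e* was lower at 0.681 (0.461 to 0.975) and *Lck* at 0.683 (0.376 to 1.15), and *Lat* was higher at 1.4 (0.951 to 2.01), so that only the interval of *Cd3e* left out 1. *Cd5* fell under the minimum, with 4 UMIs in B16–IL-33 and 149 in B16 cells, a ratio of 0.276 (0.0743 to 0.722) that was 0.751 with thinned cells and 0.174 with the tags numbered 1. The part of RNA from other cell types in these T_conv_ values was not tested. Among CD8+ T cells, 5 of 8 had enough UMIs and 2 were past the fold, beside 16.2% of 290 genes. *Cd3g* was higher at 1.31 (1.05 to 1.63) and *Lck* lower at 0.612 (0.401 to 0.902). *Cd3g* was at 1.65 with the tags numbered 1 and at 0 with at least 2 tag UMIs. Summed myeloid markers in B16 and B16–IL-33 CD8+ T cells were at 424 CPM (8 of 9 detected, *Lyz2* the most abundant) and 178 CPM (7 of 9, *C1qb*), and their part in the result was not tested. Under the tags numbered 1 and 2 the sums were 1281 and 62.8 CPM for B16 and 120 and 235 CPM for B16–IL-33.

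*Cd3g*, *Cd3d* and *Cd3e* lie next to each other on chromosome 9. In GENCODE vM21 (GRCm38), *Cd3g* spans chr9:44969572-44980431 on the minus strand, *Cd3d* chr9:44981786-44987339 on the plus strand and *Cd3e* chr9:44998740-45009627 on the minus strand. *Cd3g* and *Cd3d* start back to back, with 1354 bases between their gene bodies. *Cd247* and *Zap70* are on chromosome 1, *Lck* on 4, *Lat* on 7 and *Cd5* on 19. No other gene overlaps *Cd3d*, *Cd3g* or *Cd5*, whereas *Pou2f1*, on the opposite strand, is among those that overlap *Cd247*.

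Promoters of all 8 genes were found in the RefSeq table (GRCm38.p6), 11 in all with 3 for *Zap70* and 2 for *Lck*. In the 250 bases before the start, read on both strands, GGAA (the core of ETS factor sites) was found in 10 of the 11, against 93.4% of all 32851 promoters, and CANNTG (the E-box) in 10 of 11, against 66.2%. TGTGGT (the RUNX core) was found in 2 of 11, against 14.0%, and TATAAA in 0 of 11, against 12.4%. A match is a description of the letters. The divergent starts of *Cd3d* and *Cd3g* are shown for their different content, with 6 GGAA matches before *Cd3d* and 2 before *Cd3g*. Each line gives 250 bases 5′ to 3′ on the strand of its gene, with GGAA or its reverse complement in capitals, for *Cd3d* at chr9:44981536-44981785 (plus strand) and for *Cd3g* at chr9:44980432-44980681 (minus strand).
Cd3d: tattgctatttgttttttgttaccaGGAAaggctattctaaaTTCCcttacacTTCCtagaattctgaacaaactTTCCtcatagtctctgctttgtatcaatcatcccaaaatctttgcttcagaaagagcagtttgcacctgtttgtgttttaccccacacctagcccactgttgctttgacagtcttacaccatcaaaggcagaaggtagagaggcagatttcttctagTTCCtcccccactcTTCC
Cd3g: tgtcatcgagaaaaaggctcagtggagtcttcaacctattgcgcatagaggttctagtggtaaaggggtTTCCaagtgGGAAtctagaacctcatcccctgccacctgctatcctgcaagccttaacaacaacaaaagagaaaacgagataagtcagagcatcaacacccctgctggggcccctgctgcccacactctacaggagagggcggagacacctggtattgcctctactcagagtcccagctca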

How the data were processed

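T cells sorted from B16 and B16–IL-33 tumors were pooled and sequenced as 1 gene expression, 1 hashtag and 1 TCR library. The authors deposited raw UMI counts per gene or tag and barcode, and a contig table with UMIs and clonotypes. Cell Ranger is given as 6.1.1 in the submitters' processing notes and as 3.1.0 in the matrix header. Only mouse genes were used.

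From these counts, levels, ratios and shares were computed with Python 3.11.15, numpy 2.4.6, scipy 1.17.1 and pandas 2.3.3, and TMM factors with edgeR 4.0.16 in R 4.3.3. The scripts were tested on simulated data. A cell took the tumor of its tags when they named only 1 tumor, a rule known from an earlier analysis. No doublet caller was run, and the 428 kept cells with at least 2 productive beta chains were left out as an alternative. Other alternatives changed cell limits, scaling, depth, lineage, tag and clone rules, the fold and the minimum of UMIs. From the wider lists, the 3 highest and 3 lowest ratios of each comparison were named. A cell state of the plan, and the groups and correlations built on it, are not reported here. The members and lists were chosen with earlier results of these data known.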

Additional observations from a re-analysis of the deposited data

Results flagged for a closer look

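Signals of the set were found in barcodes that the comparisons did not use, which is what flagged both results here. The 3385 kept cells in no lineage had the 4 CD3 chains at a summed 2517 CPM (2482 to 2551), above the 212 CPM of myeloid-marker cells in no lineage and without a TCR. The 1597 of them with a TCR contig had 3093 CPM (3042 to 3144). The 766 barcodes over the limit of 2500 genes, with a median of 13576 UMIs, had 1478 CPM (1458 to 1499). Their 9 myeloid markers were at a summed 1664 CPM and their 5 melanocyte markers at 3049 CPM. Whether barcodes with more than 1 cell explain these values was not tested.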

How the results depend on the processing

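Counts of genes past the fold were few, so small changes moved them, and the cause was not tested except where the fold or the minimum of UMIs was itself changed. Beside the counts below, the share of all genes is given only for the changed minimum of UMIs. For T_reg_ against T_conv_ cells the count of 1 became 0 with totals without ribosomal, mitochondrial and TCR segment genes, with at least 2 UMIs for a lineage, with TMM and with a fold of 1.5. For CD8+ against T_conv_ cells the count of 3 became 1 with the mean of each cell's CPM, thinned cells, TMM and a fold of 1.5. For CD8+ against T_reg_ cells the count of 2 became 1 with a mitochondrial limit of 10%, totals without those genes, the mean of each cell's CPM, thinned cells and a fold of 1.5, and 4 with a fold of 1.2. For *Zbtb16*+ against T_conv_ cells the count of 2 became 4 without an upper limit on genes, with the mean of each cell's CPM, thinned cells, at least 2 UMIs for a lineage and a fold of 1.2, and 1 with a fold of 1.5. For B16–IL-33 against B16 the T_reg_ count of 1 became 0 without an upper limit on genes, with the tags numbered 1, at least 2 tag UMIs and a fold of 1.5, 2 without cells with 2 or more beta chains, and 4 with the tags numbered 2 and a fold of 1.2. With at least 2 tag UMIs *Cd3g* was at 0.456, further from 1 than the main ratio of 0.736. The T_conv_ count of 3 became 0 with thinned cells, the tags numbered 1 and a fold of 1.5. Across the settings that changed the ratios, *Lat* stayed at 1.31 or higher and *Lck* at 0.764 or lower. These settings mostly reused the same B16–IL-33 cells, 17 in the main comparison, with 34 *Lat* and 15 *Lck* UMIs. They are therefore no independent check, and both main intervals held 1. The CD8+ count of 2 became 1 with the mean of each cell's CPM, without cells with 2 or more beta chains, without cells with markers of other types, with the tags numbered 1, TMM and a fold of 1.5, 0 with thinned cells, the tags numbered 2 and at least 2 tag UMIs, and 4 with a minimum of 50 UMIs or none. The last count stands beside 36.6% of 1157 genes at 50 UMIs and 77.1% of 10778 genes with no minimum, so it is no result about the set. For expanded against single clones the T_reg_ count of 0 became 4 with clones of at least 3 cells and 1 with a fold of 1.2, and the T_conv_ count of 0 became 1 with totals without those genes, TMM and a fold of 1.2, and 2 with clones of at least 3 cells. The CD8+ count stayed at 0, with ratios from 0.776 for *Cd5* to 1.24 for *Cd3g* across the settings that changed them. For states, the counts without an upper limit on genes stand in the report. The T_conv_ count of 1 became 2 in *Pdcd1*+ cells with thinned cells, and in interferon cells 2 with a mitochondrial limit of 10% and the mean of each cell's CPM and 3 with thinned cells. In *Il1rl1*+ T_reg_ cells the count of 2 became 1 with a mitochondrial limit of 10%, thinned cells and without cells with 2 or more beta chains. Counts of 0 became 1 with thinned cells in cycling T_reg_, cycling T_conv_ and stimulated T_reg_ cells, and with the mean of each cell's CPM in interferon T_reg_ cells. In Ly49+ CD8+ T cells the count of 4 became 3 with totals without those genes, the mean of each cell's CPM and TMM. The count of 1 in stimulated CD8+ T cells became 0 with a mitochondrial limit of 10%, totals without those genes, the mean of each cell's CPM, TMM and without cells with 2 or more beta chains. In *Havcr2*+ CD8+ T cells it became 0 with these settings except the mean of each cell's CPM, which gave 2, and with thinned cells and without cells with markers of other types. A fold of 1.5 left 2 for Ly49+ cells and 0 for the other states. A fold of 1.2 gave 4 for *Il1rl1*+ cells, 3 for cycling CD8+, 2 for interferon T_conv_, *Pdcd1*+ and stimulated CD8+, and 1 for *Pdcd1*+ and stimulated T_reg_ and stimulated T_conv_ cells. *Cd3g* in B16–IL-33 against B16 T_reg_ cells turned from lower to 1.02 with the tags numbered 1, and in CD8+ T cells from higher to 0 with at least 2 tag UMIs, and the cause was not tested. Of 200 ratios, 61 moved beyond their interval without an upper limit on genes, 25 with TMM, 28 with thinned cells, 20 with totals without those genes, 9 with the mean of each cell's CPM, 1 without cells with markers of other types and 0 with a mitochondrial limit of 10%. Of 32 shares, 32 moved without thinning and 27 with thinning to 1000 UMIs. Shares in myeloid-marker cells in no lineage and without a TCR, added after the data were seen, moved for 8 of 8 genes. At least 2 tag UMIs left too few T_conv_ cells for a value, and *Zbtb16*+ cells held 0 expanded clones and no B16–IL-33 tag. No paired analysis was run, and no result comes from a test. Only 1 pool was sequenced.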
